A study of Mus musculus with 17 samples.

Results

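Voltage-gated potassium channels and hyperpolarization-activated HCN channels were examined in brain RNA as a group of 35 genes, out of 45147 features in the count tables. The members were taken from a list of channel genes by symbol, which holds pore-forming and silent subunits and 4 KChIP genes. Transcript rows were summed to genes before testing. The 6 transgene libraries came from mice labelled as overexpressing HAR1A, a long noncoding RNA, and the 11 control libraries from normal mice. Both groups were C57BL/6 by strain background, and the labelled tissue was brain. The labels give no brain region, age, sex, transgene promoter or line, and do not say whether each library is a separate animal. The p-values below therefore measure the spread between these libraries. HAR1A itself was not analysed here, and the transgene label therefore has no check from the data.

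Voltage-gated potassium channels open on depolarization, repolarize the membrane and set firing rate and spike width. Pore-forming subunits assemble as tetramers within a subfamily, and silent subunits form channels only together with Kv2 subunits. KChIP proteins are calcium-binding partners of Kv4, and HCN channels open on hyperpolarization and carry a mixed cation current that cyclic AMP regulates.

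Libraries held 17067407 to 22642441 assigned counts. All transgene libraries and controls 7, 8 and 11 carried lane 4 in their titles, 6 controls carried lane 8, control 4 lane 2, and control 6 lane 6 of another flow cell. Lane and flow cell were read from the form of these titles, which the labels do not explain. The summed level of 8 general neuron markers was 4333 to 5790 CPM (normalised read counts, scaled by TMM) in the transgene and 4379 to 6555 CPM in the control libraries. Other marker lists differed between the groups, beside 23% of all features called higher and 24.4% lower. Cortical and hippocampal excitatory markers summed to 3766 to 5720 CPM in transgene and 223 to 2406 CPM in control libraries, and 7 of 8 were called higher. All 8 striatal markers were called higher (983 to 2787 against 364 to 618 CPM). All 8 cerebellar granule cell markers were called lower (65.2 to 459 against 109 to 2640 CPM), as were 5 of 6 Purkinje cell markers (220 to 808 against 173 to 3620 CPM) and all 8 hindbrain and cord markers (0.44 to 3.56 against 30.1 to 349 CPM). Astrocyte markers gave 5 of 8 lower and 1 higher. Their summed level was 4811 to 5760 CPM (median 5236) in transgene and 4209 to 5268 CPM (median 4764) in control libraries. Endothelial markers gave 3 of 4 tested lower, thalamic markers 1 of 4 and choroid plexus markers 1 of 5 lower. Smooth muscle markers gave 0 of 3 in either direction. Control 7 stood apart from the other controls in granule cell markers, with a mean log2 CPM of 2.23 against 5.55 to 6.97. Transgene 3 stood apart from the other transgene libraries with 4.55 against 1.39 to 1.89. Without control 7 and transgene 3 together, 21 members were called higher and 7 lower, beside 47.2% of all features called. The part of these cell type differences in the channel results was not tested between the groups. In these bulk samples, fewer cells of a type and less RNA per cell cannot be told apart.

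Most members were higher in the transgene libraries. Over all 17 libraries, 34 members passed the expression filter. Of these, 20 were called higher and 7 lower (edgeR, adjusted p under 0.05), beside 47.4% of all 19136 features called, 23% higher and 24.4% lower. Scaled by library size alone, 35.6% of the calls over all features were higher instead of 48.6%, and the members gave 19 higher and 8 lower. The median log2 fold change of the tested members was 0.89, and that of all tested features was -0.05. The groups did not overlap for 14 of the higher and 3 of the lower members, beside 9.46% of features higher without overlap and 5.4% lower without overlap. Among the largest rises were those of Kcnv1, Kcnh3, Kcnq5, Kcnip2 and Kcnf1, and among the falls those of Kcnc1, Kcnh2 and Kcna1. Within lane 4, where 6 transgene and 3 control libraries were compared, all 35 members were tested, 17 were called higher and 5 lower, beside 25.6% of features called (13.6% higher, 12% lower). There the groups did not overlap for 15 members higher and 5 lower, beside 14.7% and 10.6% of features.

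**Figure D1:**
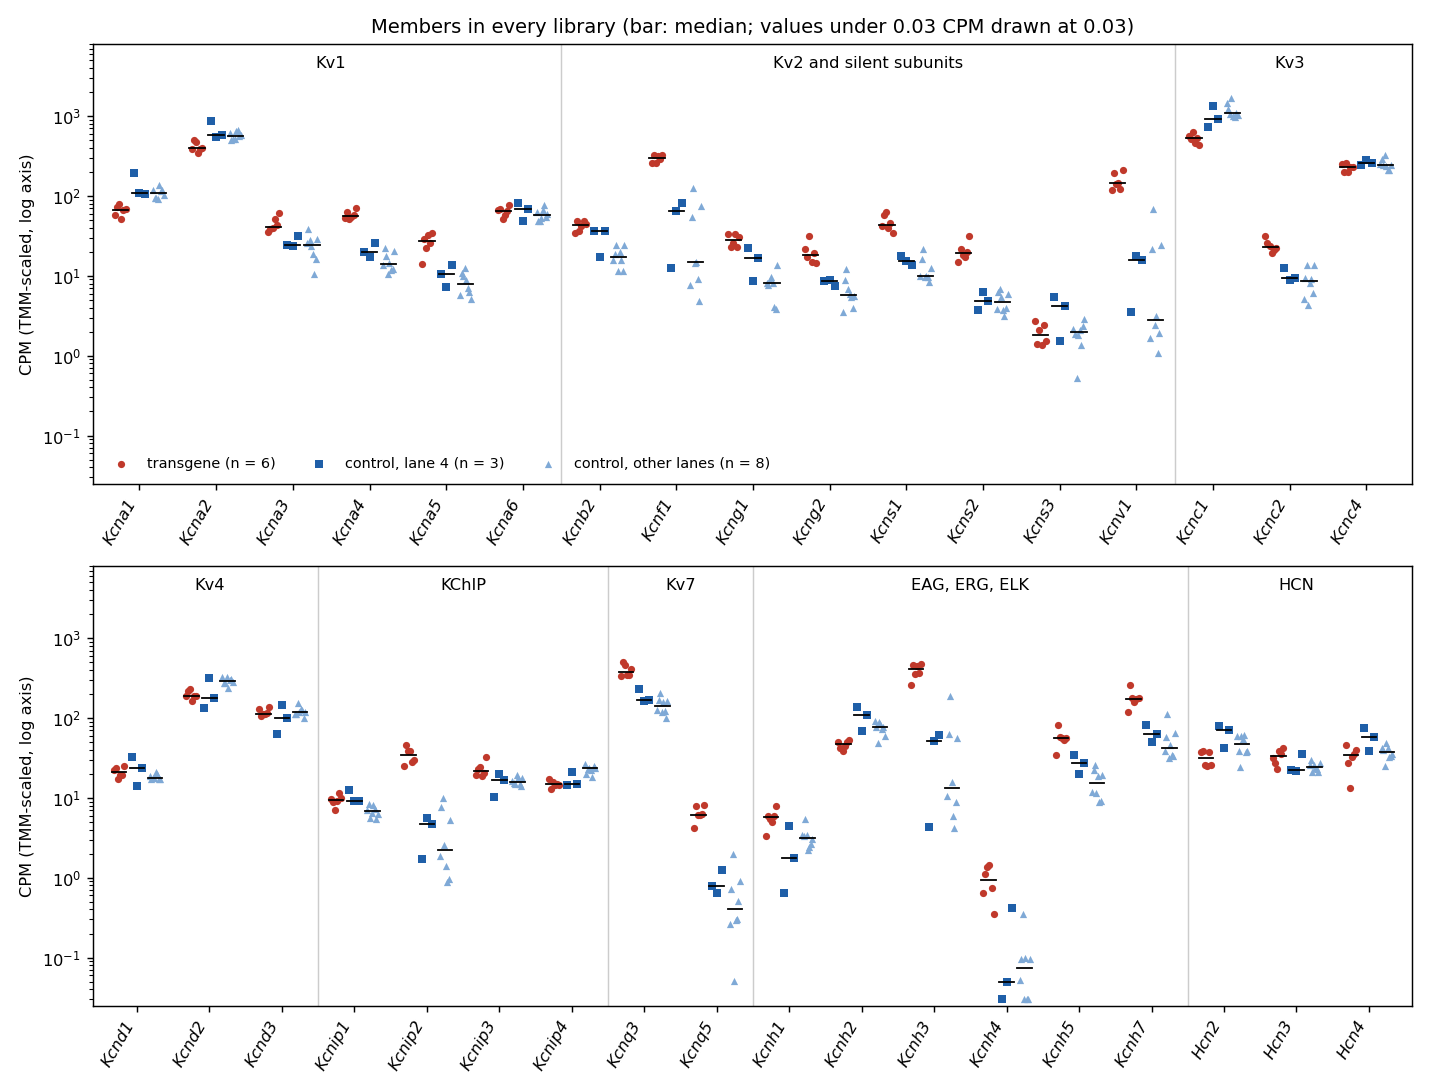
TMM-scaled CPM of all 35 members in every library on a log axis, by subfamily. Circles are the 6 transgene libraries, squares the 3 lane 4 controls and triangles the other 8 controls, and bars are medians. Control values spread widely in several members, among them Kcnh3 (4.20 to 190.7 CPM), Kcnv1 (1.09 to 68.6 CPM), Kcnq5 (0.05 to 1.98 CPM) and Kcnf1 (4.88 to 125 CPM).

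**Figure D2:**
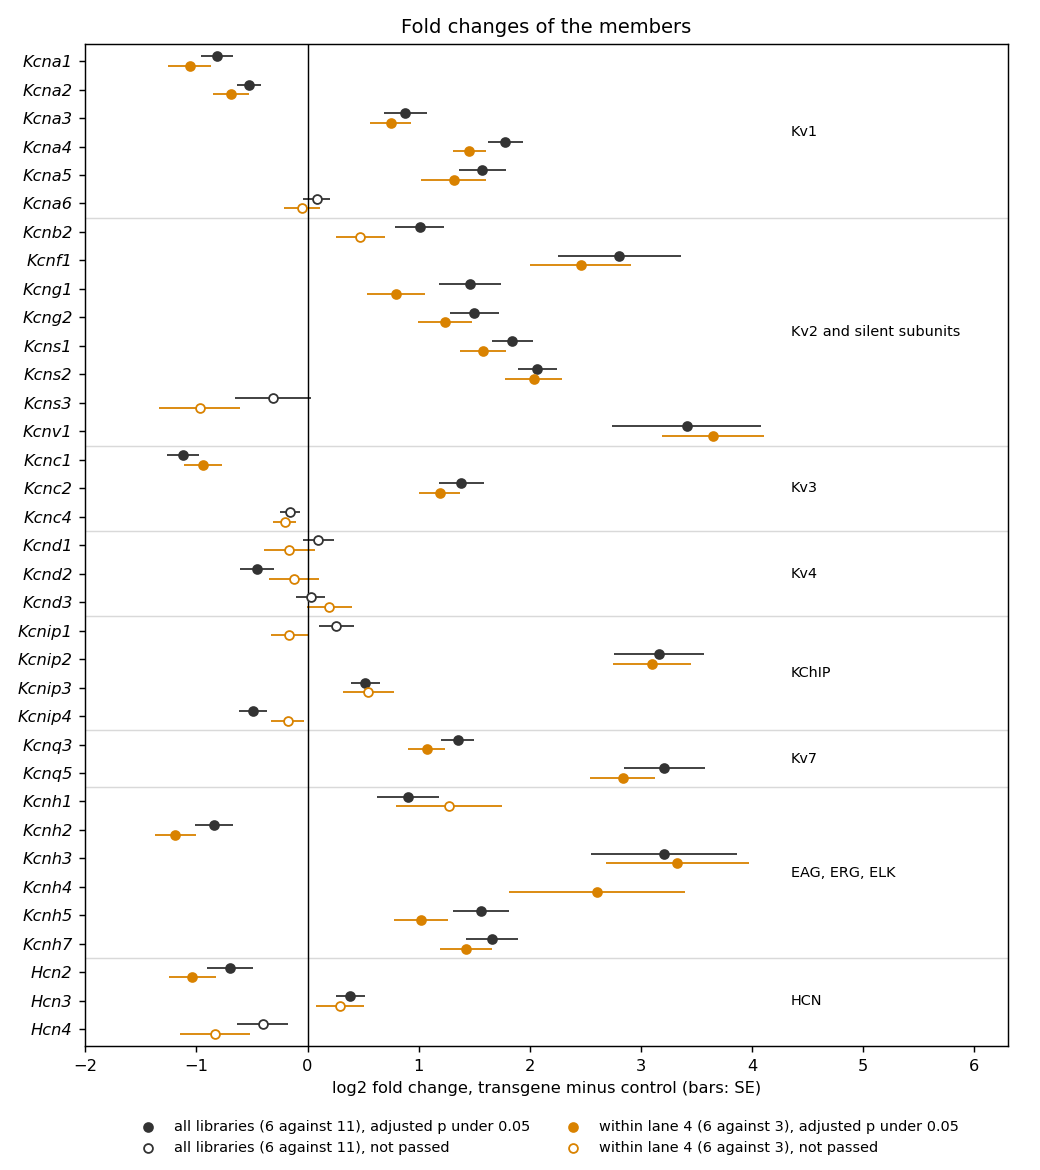
Log2 fold change of each member, transgene minus control, with its standard error, over all libraries (dark) and within lane 4 (orange); filled points passed an adjusted p of 0.05. Kcnh4 has a value within lane 4 only, and Kcnv1 lies farthest to the right in both comparisons.

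The promoters of 5 members are shown because these genes carry the changes described below: Kcnip2 and Kcnf1, which rose, Kcnc1, which fell, and the internal start sites of Kcnh2-202 and Kcnip4-204, transcripts that fell. The most abundant transcript fell less in Kcnh2 and rose in Kcnip4. Sequences are from the RefSeq promoter table (GRCm38.p6) and cover the 250 bases before the start, given 5′ to 3′ on the gene's strand. Capitals mark the GC box GGGCGG, the core of an Sp1 site, on either strand. The Kcnip2 window is chr19:45816064-45816313 (minus strand), Kcnf1 chr12:17176889-17177138 (minus), Kcnc1 chr7:46396218-46396467 (plus), Kcnh2-202 chr5:24329592-24329841 (minus) and Kcnip4-204 chr5:48599683-48599932 (minus).
Kcnip2: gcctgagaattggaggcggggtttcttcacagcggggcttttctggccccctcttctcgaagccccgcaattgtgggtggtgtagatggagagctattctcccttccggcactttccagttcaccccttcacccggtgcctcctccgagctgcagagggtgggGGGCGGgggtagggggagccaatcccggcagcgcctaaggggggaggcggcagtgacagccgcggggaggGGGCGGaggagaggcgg
Kcnf1: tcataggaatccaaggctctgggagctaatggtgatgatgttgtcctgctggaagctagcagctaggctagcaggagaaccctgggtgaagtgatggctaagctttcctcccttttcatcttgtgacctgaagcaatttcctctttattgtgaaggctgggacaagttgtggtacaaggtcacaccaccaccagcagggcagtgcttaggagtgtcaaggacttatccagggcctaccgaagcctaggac
Kcnc1: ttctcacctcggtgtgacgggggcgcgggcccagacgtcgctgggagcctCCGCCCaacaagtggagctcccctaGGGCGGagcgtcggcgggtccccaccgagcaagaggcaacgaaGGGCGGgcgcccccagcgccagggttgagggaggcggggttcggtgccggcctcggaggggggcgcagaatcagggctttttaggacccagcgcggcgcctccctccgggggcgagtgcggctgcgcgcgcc
Kcnh2-202: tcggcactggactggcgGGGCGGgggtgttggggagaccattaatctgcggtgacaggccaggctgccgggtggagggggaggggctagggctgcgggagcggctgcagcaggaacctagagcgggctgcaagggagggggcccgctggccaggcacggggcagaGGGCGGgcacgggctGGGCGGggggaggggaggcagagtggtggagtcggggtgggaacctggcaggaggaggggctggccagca
Kcnip4-204: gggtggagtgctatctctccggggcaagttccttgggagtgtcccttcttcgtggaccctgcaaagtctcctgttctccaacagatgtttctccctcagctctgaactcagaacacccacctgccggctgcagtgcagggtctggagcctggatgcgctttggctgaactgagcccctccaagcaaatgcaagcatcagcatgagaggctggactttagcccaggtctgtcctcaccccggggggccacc
The Kcnip2 window held 2 GC boxes, those of Kcnc1 and Kcnh2-202 held 3 each, and those of Kcnf1 and Kcnip4-204 held 0. G and C made up 66.8% of the Kcnip2 and 51.2% of the Kcnf1 window, so the 2 members that rose differed in this. Of the 35 members, 25 had windows in the table, 35 in all, and windows of one gene can overlap, as do some of the 4 of Kcnc2. Over the 300 bases from 250 before the start to 50 into the transcript, GGGCGG was in 21 of these 35 windows and in 35.6% of the 32817 windows of all genes. CAGCTG, an E-box, was in 10 windows of 7 members and in 16.3% of all windows. TATAAA, the TATA box, was in 0 and in 13.6% of all. The cyclic AMP response element TGACGTCA was in 0 and in 1.79%. TTCAGCACC, the left part of the REST site, was in 0 and in 0.372% of all windows. Both strands were searched, and none of these motifs contains another. The median GC content was 64.0% in member windows and 52.7% in all. A match is a description of the sequence, not a site of binding.

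The Kv1 subfamily was split. Kcna1 and Kcna2, which encode low-threshold channels of axons, were lower, and Kcna3, Kcna4 and Kcna5 were higher. Kcna1 had 52.0 to 79.4 CPM (median 67.3, n = 6) in the transgene and 92.7 to 195 CPM (median 107, n = 11) in the control libraries. Every transgene library was below every control, and Kcna1 fell by 0.82 ± 0.14 (SE) on the log2 scale (adjusted p = 0.000137). Kcna2 had 345 to 496 CPM (median 395) against 503 to 858 CPM (median 577), also without overlap, a fall of 0.53 ± 0.11 (adjusted p = 0.000585). Control 7 was the highest library for both genes. Kcna4, which encodes a rapidly inactivating subunit of axons and terminals, went the other way. It had 51.9 to 70.1 CPM (median 55.9) in transgene and 10.5 to 25.7 CPM (median 17.4) in control libraries. It rose by 1.78 ± 0.16 on the log2 scale (adjusted p = 1.79e-07). Kcna5, also a channel of heart and vessels, had 13.9 to 34.8 CPM (median 27.6) against 5.08 to 13.8 CPM (median 8.85), and rose by 1.57 ± 0.21 on the log2 scale (adjusted p = 7.78e-06). Transgene 1, the lowest transgene library for Kcna5, was just above control 11, the highest control. Kcna3, known also from T cells and microglia, had 35.1 to 61.8 CPM (median 41.4) against 10.6 to 38.4 CPM (median 24.6). Its groups overlapped through control 2, and its log2 fold change was 0.88 ± 0.20 (adjusted p = 0.00112). Kcna6 did not pass the test (0.08 ± 0.12). Within lane 4 these 5 genes passed as well, with log2 fold changes of -1.06 for Kcna1, -0.69 for Kcna2, 0.75 for Kcna3, 1.46 for Kcna4 and 1.31 for Kcna5, and none of the 5 overlapped between the groups. Over all libraries, 3 of 4 tested microglial markers were called higher (summed level 282 to 374 CPM in transgene and 200.2 to 398 CPM in control libraries). Within lane 4, 1 of 5 tested microglial markers was called higher, and their median log2 fold change was 0.07. Their part in the Kcna3 result was not tested.

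Of the 8 genes of Kv2 and silent subunits, 7 were called higher and none lower. Kcnv1, a silent subunit gene, showed the largest log2 fold change of all 34 tested members. It had 118 to 213 CPM (median 144) in transgene and 1.09 to 68.6 CPM (median 3.49) in control libraries, so the groups did not overlap although the controls spread widely. Its log2 fold change was 3.41 ± 0.67 (adjusted p = 0.000392), and 4.06 without control 3, the highest control. Kcnf1, another silent subunit gene on chromosome 12, had 260.4 to 325 CPM (median 299) against 4.88 to 125 CPM (median 14.8), again without overlap, and rose by 2.81 ± 0.55 on the log2 scale (adjusted p = 0.000381). Both genes were higher within lane 4 as well. There Kcnv1 had 3.49, 17.6 and 15.8 CPM in controls 7, 8 and 11 (3.65 ± 0.46, adjusted p = 0.00037), and Kcnf1 had 12.4, 65.3 and 82.0 CPM (2.46 ± 0.45, adjusted p = 0.00302). The remaining calls over all libraries were log2 fold changes of 2.07 for Kcns2, 1.84 for Kcns1, 1.5 for Kcng2, 1.46 for Kcng1 and 1.01 for Kcnb2. Kcnb2 encodes a pore-forming Kv2 subunit, and the other 4 are silent. Kcns1, Kcns2, Kcng1 and Kcng2 had no overlap between the groups, while transgene 1 and transgene 3 lay below controls 7 and 11 in Kcnb2. With a factor for lane and flow cell, Kcnb2 (0.49, adjusted p = 0.144) and Kcng1 (0.82, adjusted p = 0.0589) were no longer called. Within lane 4, Kcnb2 did not pass (0.47 ± 0.22), and the call of Kcng1 (0.80 ± 0.26, adjusted p = 0.0447) was lost without control 8, control 11 or any single transgene library. Kcns3 did not pass over all libraries (-0.31 ± 0.34) or within lane 4 (-0.97 ± 0.36, adjusted p = 0.0746).

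The Kv3 subfamily, which repolarizes fast-spiking neurons, also moved in opposite directions. Kcnc1 fell and Kcnc2 rose. Kcnc1 had 433 to 634 CPM (median 526.4) in transgene and 731 to 1685 CPM (median 1051) in control libraries. No transgene library reached the lowest control, control 7, and Kcnc1 fell by 1.12 ± 0.15 on the log2 scale (adjusted p = 6.73e-06). Kcnc2 had 19.3 to 31.7 CPM (median 22.8) against 4.31 to 13.7 CPM (median 9.11), again without overlap, and rose by 1.39 ± 0.20 (adjusted p = 2.24e-05). Kcnc4 had 197 to 261 CPM (median 231) against 211 to 325 CPM (median 247) and did not pass the test (-0.15 ± 0.09). Within lane 4 the log2 fold changes were -0.94 ± 0.17 for Kcnc1 (adjusted p = 0.0029) and 1.19 ± 0.18 for Kcnc2 (adjusted p = 0.00113). Per kilobase of exon, the share of Kcnc1 in the summed level of the 3 Kv3 members was 40.8% to 48.5% in transgene and 53.0% to 69.0% in control libraries. Kcnc4 took 48.3% to 56.4% and 30.7% to 45.8%, and Kcnc2 no more than 3.37% in any library. Reads shared between rows are left out, which understates Kcnc1 and Kcnc2 against Kcnc4, a gene with 1 row. Pvalb, from the list of GABA neuron and fast-spiking interneuron markers, was lower in the transgene libraries, by 2.77 on the log2 scale. Gad2 and Erbb4 of the same list were called higher. The summed level of that list was 1224 to 1693 CPM against 1283 to 1519 CPM. Of 6 Purkinje cell markers, 5 were called lower. The part of either list in the Kv3 and Pvalb results was not tested.

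Kv4 channels carry the fast A-type current of dendrites, and none of the 3 rose. Kcnd2, the member with most counts among them, had 163 to 230.4 CPM (median 190.4) in transgene and 133 to 330.1 CPM (median 282) in control libraries. The groups overlapped through controls 7 and 11, and Kcnd2 fell by 0.45 ± 0.16 on the log2 scale (adjusted p = 0.0224). The adjusted p was 0.0618 to 0.0849 when transgene 1, 4, 5 or 6 was left out singly. Within lane 4 the value was -0.12 ± 0.22 (adjusted p = 0.736). Kcnd1 (0.10 ± 0.14) and Kcnd3 (0.03 ± 0.13) did not pass the test over all libraries.

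The KChIP genes, partners of these Kv4 subunits, included 2 called higher and 1 called lower. Kcnip2 had 25.4 to 45.8 CPM (median 34.4) in transgene and 0.88 to 9.90 CPM (median 2.57) in control libraries. All transgene libraries were above all controls, and the log2 fold change was 3.17 ± 0.41 (adjusted p = 5.47e-06). Within lane 4, with controls at 1.72, 5.60 and 4.64 CPM, it was 3.10 ± 0.35 (adjusted p = 0.000204). Kcnip3, whose protein is also known as the transcriptional repressor DREAM, had 18.9 to 32.7 CPM (median 21.8) against 10.2 to 20.1 CPM (median 16.4). It rose by 0.52 ± 0.13 on the log2 scale (adjusted p = 0.003), and transgene 4 and transgene 1 lay below control 8. Kcnip4 had 13.0 to 17.3 CPM (median 14.9) against 14.4 to 26.6 CPM (median 22.1), and fell by 0.49 ± 0.12 (adjusted p = 0.00298). Controls 7 and 11 lay within the transgene range, and within lane 4 Kcnip4 had a log2 fold change of -0.18 ± 0.15 (adjusted p = 0.414) and Kcnip3 of 0.55 ± 0.23 (adjusted p = 0.104). Kcnip1 did not pass the test over all libraries (0.26 ± 0.16), but did without control 7 (0.37, adjusted p = 0.0228). Per kilobase, Kcnip2 made up 36.7% to 53.4% of the summed KChIP level in transgene and 2.31% to 19.8% in control libraries. Kcnip4 made up 14.5% to 25.1% and 35.3% to 57.7%, and Kcnip3 24.2% to 39.4% and 29.6% to 40.4%. By median share, Kcnip2 ranked first in transgene and Kcnip4 in control libraries. Each KChIP gene has several rows, and reads shared between rows are left out. The loss may differ by gene and group, so these shares are approximate.

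The deposited transcript rows of Kcnip4 moved in opposite directions. Kcnip4 lies on chromosome 5 (mm10, 48389502 to 49524907, minus strand) and overlaps 31 other annotated genes, and 4 of its 5 rows held counts. These 4 rows start at different bases. Kcnip4-201, which starts at 49524907, had 11.3 to 13.8 CPM in transgene and 6.04 to 11.4 CPM in control libraries and rose by 0.57 ± 0.12 on the log2 scale (adjusted p = 0.000525). The groups overlapped only through control 3 at the edge of the transgene range. Kcnip4-208, which starts at 48889557, had 0.20 to 1.65 CPM against 2.74 to 11.8 CPM, a fall of 2.94 ± 0.35 (adjusted p = 1.93e-06). Kcnip4-206, starting at 49285659, fell by 1.15 ± 0.23 (adjusted p = 0.000404), and Kcnip4-204, starting at 48599682, by 1.74 ± 0.24 (adjusted p = 1.26e-05). Kcnip4-208, Kcnip4-206 and Kcnip4-204 had no overlap between the groups, though in Kcnip4-206 the gap was narrow. Its highest transgene library was at 1.46 CPM (transgene 5) and its lowest control at 1.53 CPM (control 6). The share of all tested rows without overlap was not computed. As a share of the counts of all Kcnip4 rows, Kcnip4-201 made up 76.9% to 88.2% in transgene and 31.3% to 49.1% in control libraries. Of all transcript rows tested, 44.8% were called (23.7% higher, 21.1% lower), and of the 50 tested rows of members 26 were higher and 11 lower. Reads that fit several rows were not assigned to any, so these values rest on reads that tell the rows apart.

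**Figure D3:**
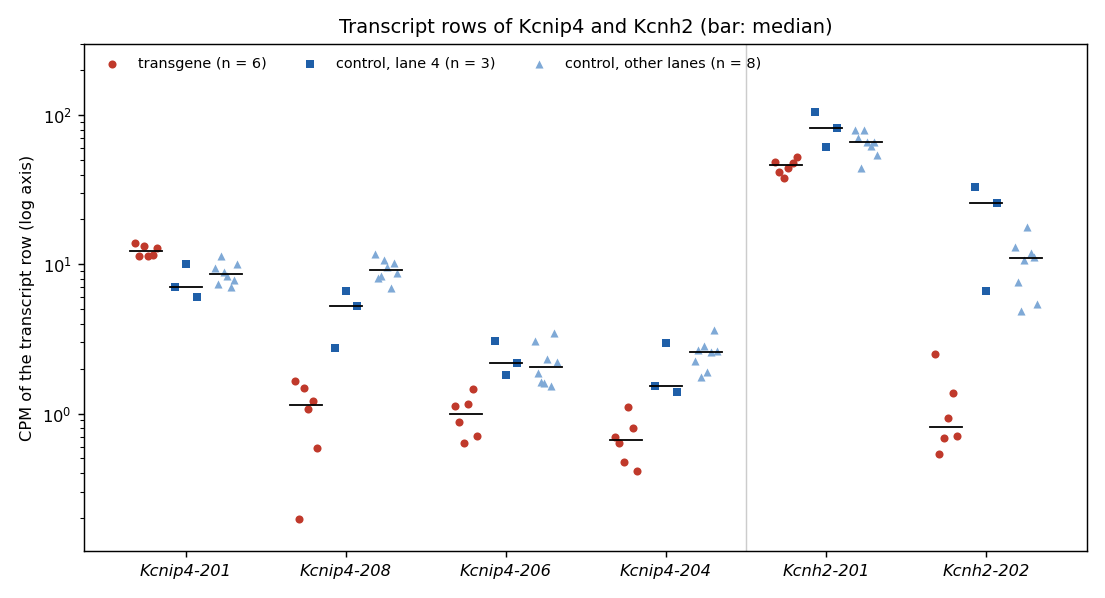
CPM of the transcript rows of Kcnip4 and Kcnh2 in every library on a log axis; circles are transgene libraries, squares lane 4 controls, triangles other controls, bars medians. Kcnip4-201 is higher in the transgene libraries, and the other 3 Kcnip4 rows and Kcnh2-202 lie below every control.

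The Kv7 members encode subunits of the M-current, a slow current that limits repetitive firing, and both rose. Kcnq3 had 333 to 496 CPM (median 378) in transgene and 99.1 to 229 CPM (median 163) in control libraries, without overlap. Its log2 fold change was 1.35 ± 0.15 (adjusted p = 1.04e-06), and 1.07 ± 0.17 within lane 4 (adjusted p = 0.00126). Kcnq5 was scarcer, with 4.15 to 8.16 CPM (median 6.19) against 0.05 to 1.98 CPM (median 0.64). No control reached the lowest transgene library, and within lane 4 its log2 fold change was 2.84 ± 0.29 (adjusted p = 0.000127). Over all libraries it was 2.85 to 3.56 under the other scalings, tools, filters and fits and with each library left out. Kcnq3 made up at least 96.3% of the summed Kv7 level per kilobase in every library. Reads shared between rows are left out, which understates Kcnq5 against Kcnq3, a gene with 1 row.

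The EAG, ERG and ELK genes are the Kcnh genes among the members. Of the 5 tested over all libraries, 4 were called higher and 1 lower. Kcnh3, an ELK gene of the forebrain, had 260.7 to 476 CPM (median 407) in transgene and 4.20 to 190.7 CPM (median 15.8) in control libraries. The groups did not overlap, and the log2 fold change was 3.21 ± 0.65 (adjusted p = 0.000531), or 3.82 without control 3, the highest control. Kcnh7, an ERG gene, had 118 to 258 CPM (median 174) against 31.8 to 110.8 CPM (median 49.4) and rose by 1.66 ± 0.23 on the log2 scale (adjusted p = 1.31e-05). Transgene 1 was its lowest transgene library and control 3 its highest control. Kcnh5, an EAG gene, had 34.5 to 80.8 CPM (median 56.1) against 8.97 to 34.7 CPM (median 19.4). Control 7 was level with transgene 1, and the log2 fold change was 1.56 ± 0.26 (adjusted p = 6.53e-05). Kcnh1, the other EAG gene, had 3.30 to 7.98 CPM (median 5.68) against 0.65 to 5.41 CPM (median 3.04), with overlapping groups, and rose by 0.91 ± 0.28 (adjusted p = 0.0118). Within lane 4, Kcnh3 (3.33 ± 0.64), Kcnh7 (1.43 ± 0.23) and Kcnh5 (1.02 ± 0.24) were called higher, and Kcnh1 was not (1.27 ± 0.47, adjusted p = 0.0726). Kcnh4, an ELK gene, was near the limit of detection, with 114 counts over the 6 transgene and 22 over the 11 control libraries. It failed the expression filter over all libraries. Within lane 4 it was called (2.61 ± 0.79, adjusted p = 0.0338), but not without control 7, control 8 or transgene 2, 3 or 4. Without control 11, which held most of the lane 4 control counts, its log2 fold change was 4.96.

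Kcnh2, an ERG gene whose channel also repolarizes the heart, was the member of this subfamily that fell. It had 38.5 to 53.5 CPM (median 47.3) in transgene and 48.9 to 139 CPM (median 77.9) in control libraries. Control 3 lay inside the transgene range, and Kcnh2 fell by 0.84 ± 0.17 on the log2 scale (adjusted p = 0.000463). Within lane 4, with controls at 139, 67.9 and 108 CPM, the fall was 1.19 ± 0.19 (adjusted p = 0.00121) and the groups did not overlap. Kcnh2 has 2 deposited rows, described here after their values were seen. Kcnh2-201 covers the whole gene (chromosome 5, 24319589 to 24351604, minus strand). Kcnh2-202 starts inside it, at 24329591, and shares its end. Kcnh2-201 had 37.8 to 52.8 CPM against 44.0 to 106 CPM and fell by 0.59 ± 0.14 (adjusted p = 0.00188). Kcnh2-202 had 0.54 to 2.50 CPM against 4.89 to 33.0 CPM, without overlap, and fell by 3.56 ± 0.48 (adjusted p = 7.72e-06). The promoter printed above for Kcnh2 is that of this internal start. Kcnh2-202 made up 1.28% to 4.93% of the Kcnh2 counts in transgene and 9.21% to 23.96% in control libraries.

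Of the 3 HCN genes, 1 was called lower and 1 higher. Hcn2, a pacemaker channel gene broadly expressed in brain, had 24.9 to 38.3 CPM (median 31.7) in transgene and 24.2 to 79.4 CPM (median 55.1) in control libraries. The groups overlapped through controls 3, 9 and 10, and Hcn2 fell by 0.70 ± 0.21 on the log2 scale (adjusted p = 0.00954). Within lane 4, where the controls had 79.4, 42.4 and 70.4 CPM, no overlap remained and the fall was 1.04 ± 0.21 (adjusted p = 0.00526). Hcn3 had 22.7 to 42.4 CPM (median 33.4) against 21.2 to 35.6 CPM (median 23.4), with overlapping groups. It rose by 0.39 ± 0.13 (adjusted p = 0.0199), and the adjusted p was 0.0545 without transgene 6 and 0.36 within lane 4. Hcn4, the HCN gene of cardiac pacemaker cells and thalamus, did not pass the test (-0.40 ± 0.23), and lane 4 gave -0.84 ± 0.31 (adjusted p = 0.075).

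Per kilobase of exon, which allows levels of different genes to be compared, the order of the members differed between the groups. The highest median level in controls was that of Kcnc1 (111 CPM per kb), followed by Kcnc4 (67.4), Kcnd2 (54.8), Kcna2 (48.5) and Kcna1 (22.5). In transgene libraries it was that of Kcnh3 (70.7), followed by Kcnc4 (63.0), Kcnf1 (62.5), Kcnc1 (55.7) and Kcnd2 (36.9). These levels leave out reads shared between rows, so a gene with several rows is understated. Summed per kilobase, the members of Kv2 and silent subunits had 116 to 149 CPM per kb in transgene and 8.87 to 58.0 in control libraries, the EAG, ERG and ELK genes 72.6 to 127 against 20.7 to 57.7, Kv7 23.2 to 34.8 against 6.80 to 15.7, and KChIP 19.0 to 24.7 against 9.38 to 14.7. None of these 4 sums overlapped between the groups. Kv3 was lower, with 106 to 142 against 146 to 267. The Kv1 sums (90.4 to 119.8 against 90.8 to 147), Kv4 sums (47.1 to 59.8 against 38.7 to 79.9) and HCN sums (15.7 to 26.9 against 16.8 to 42.4) overlapped.

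The members were also compared among the 11 control libraries. Between 6 controls of lane 8 and 3 of lane 4, edgeR called 0 of 34 tested members and 0% of all 19384 features. At an unadjusted p under 0.05, 1 member was higher (Kcnip4) and 4 were lower (Kcnb2, Kcng1, Kcnip1 and Hcn4) in lane 8, beside 7.96% of features. DESeq2 and limma-voom also called 0 members.

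Several members that rose with the transgene label also varied among the controls with the level of excitatory neuron markers. The mean log2 CPM of the 8 cortical and hippocampal excitatory markers was 2.59 to 6.47 in controls and 7.04 to 7.64 in transgene libraries. In a fit over the 11 controls, chosen after their spread was seen, 5 members rose with this level and 0 fell, beside 2.83% of features called (2.11% higher, 0.715% lower). Per unit of the marker level, the log2 change was 1.30 for Kcnh3 (adjusted p = 7.4e-05), 1.29 for Kcnv1 (0.000252), 1.05 for Kcnf1 (0.00147), 0.80 for Kcnip2 (0.000279) and 0.26 for Kcns2 (0.00687). Without control 3, which had the highest marker level of the controls, the same 5 were called, with 1.24, 1.20, 1.08, 0.80 and 0.27, beside 0.832% of features called. Control 3 was at 190.7 CPM for Kcnh3 and control 6 at 4.20 CPM. Kcns2 and Kcnip2 followed the marker level over ranges of 3.15 to 6.87 and 0.88 to 9.90 CPM in controls, and their transgene libraries began at 14.8 and 25.4 CPM. Kcnq3 was not called in this fit.

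**Figure D4:**
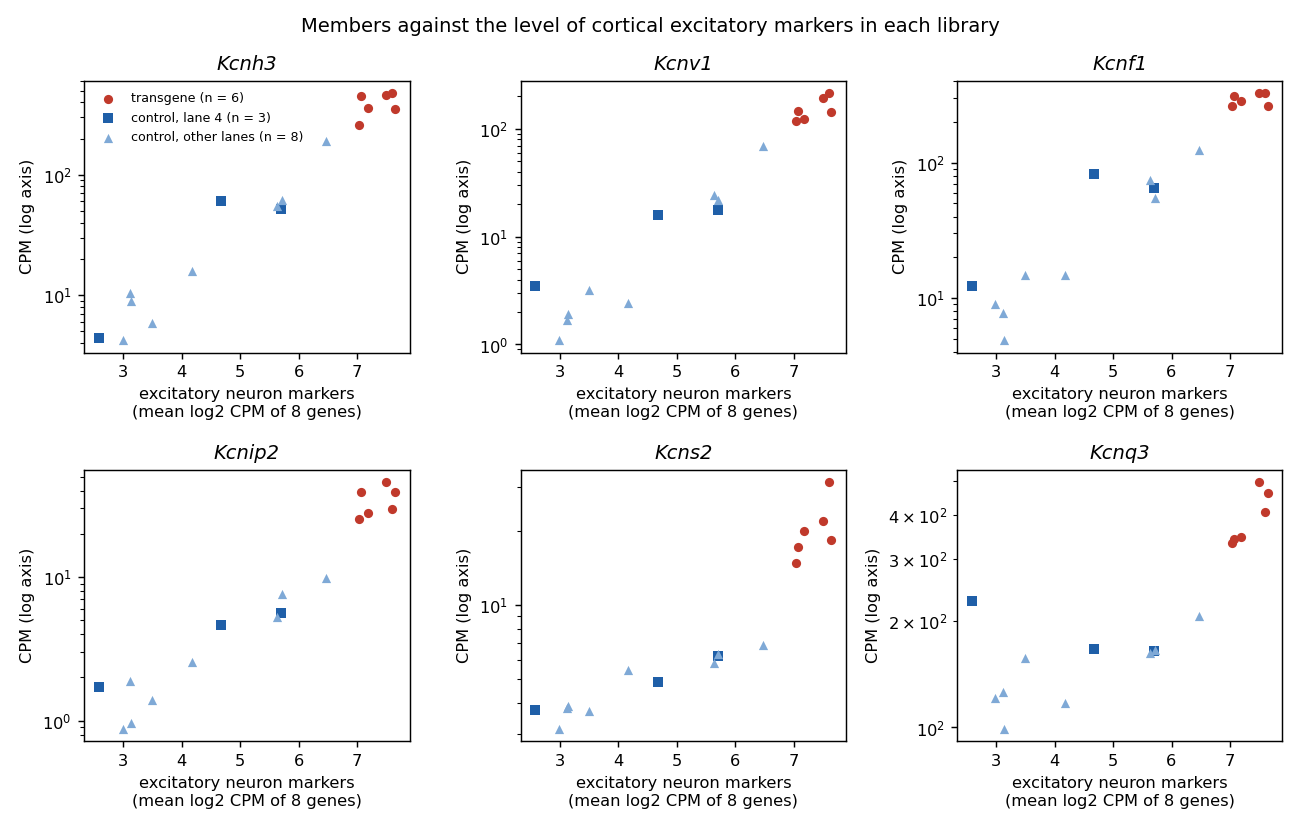
CPM (log axis) of 6 members against the mean log2 CPM of 8 excitatory neuron markers in each library; circles are transgene libraries, squares lane 4 controls, triangles other controls. In Kcnh3, Kcnv1, Kcnf1 and Kcnip2 the controls spread along the marker level, with control 3 highest, and no control reaches the marker level of the transgene libraries.

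With the level of cerebellar granule cell markers as the measure, 6 members rose and 9 fell over the 11 controls, beside 18.5% of features called (9.38% higher, 9.15% lower). Kcnd2 rose by 0.27 log2 per unit of the marker level (adjusted p = 0.000605), and Kcnc1 by 0.18 (adjusted p = 0.0275), as did Kcnd3, Kcnip3, Kcnip4 and Kcnh1. Kcna1, Kcna2, Kcnb2, Kcng1, Kcns3, Kcnd1, Kcnip1, Kcnh2 and Hcn4 fell. These calls rested on control 7. Without it, 1 member was called higher, Kcnd2 (0.65), and 1 lower, Kcnb2 (-1.15), beside 1.81% of features, and Kcnc1 had an adjusted p of 0.122.

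The other genes of these channels were taken from lists that hold no member. Of 13 further pore-forming or silent subunits of the Kv and HCN families, 11 were tested, 4 were called higher and 5 lower. Kcng4, a silent partner of Kv2, fell by 3.66 ± 0.35 on the log2 scale (adjusted p = 3.18e-07), and within lane 4 by 3.38. Kcnv2, another silent subunit, fell by 2.53 ± 0.51 (adjusted p = 0.000494). Kcng3, also silent, rose by 2.28 ± 0.34 (adjusted p = 2.92e-05). Among silent subunit genes outside the members, 2 of those named fell and 1 rose. Of 18 auxiliary and anchoring proteins, 16 were tested, 5 were called higher and 4 lower. Of all features tested, 23% were called higher and 24.4% lower, so the counts of this second list lie near that share. Dlg4, the scaffold protein PSD-95 that binds Kv1 channels, rose by 1.37 ± 0.19 (adjusted p = 1.29e-05), and Lgi1, a secreted partner of Kv1 complexes, by 0.48 ± 0.09 (adjusted p = 0.000286). Cntn2 fell by 1.02 ± 0.09 (adjusted p = 1.5e-07) and Adam22, the Lgi1 receptor, by 0.55 ± 0.11 (adjusted p = 0.000434). Cntn2 and Adam22 are proteins of the axon segment beside the node of Ranvier, where Kcna1 and Kcna2 channels are clustered. Of 8 oligodendrocyte markers 6 were called lower and 1 higher, with a summed level of 1105 to 2478 CPM in transgene and 1343 to 5525 CPM in control libraries. Their part in the results of Kcna1, Kcna2, Cntn2 and Adam22 was not tested.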

How the data were processed

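The authors deposited raw counts per transcript row for 17 libraries, with reads placed on mm10, per the submitters' processing notes. Neither the aligner nor the counting program, strand setting or annotation is given in the sources used here. Of 68512 named rows, 64380 matched GENCODE M21 transcripts by name without version and were summed to genes, which with the 4007 XLOC rows and 125 unmatched rows gave 45147 features. The 5 closing rows that name no feature stayed out of library sizes and tests. Reads fitting several rows (40.2% to 43.4% per library) had been left unassigned, so the 20 members with several rows lost reads. Another 15 members had 1 row, and 17 members overlapped another gene. As no strand setting is stated, reads of overlapping genes cannot be told apart.

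Genes were tested in R 4.3.3 with edgeR 4.0.16 (TMM scaling, default expression filter, quasi-likelihood F test, Benjamini-Hochberg over all tested features, threshold 0.05). Standard errors came from the F statistic, and a prior count of 2 was used for log2 CPM. No pair of libraries of a group agreed within counting noise (chi-square per gene at least 9.97). Alternatives used limma 3.58.1, DESeq2 1.42.0, other scaling, no filter, the most abundant row, lane and flow cell as a factor, and each library left out. On simulated counts with 200 changed genes, the test over all libraries recovered 72% of 2-fold and 33% of 1.5-fold changes, and that within lane 4 recovered 31% and 5%, with 4.55% and 14.3% of calls false. The comparison of controls by lane recovered 14% and 1%. In the data, 47.4% of features were called over all libraries and 25.6% within lane 4, far more than were changed in the simulation. Its rates need not hold for those 2 comparisons.

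Members, lists and tests were chosen with earlier results of these data known. Values are given for the 2 members of each subfamily with the largest called change and for every called member of a subfamily with calls in both directions. For the lists of related genes, up to 4 with the largest called change are named (a result that falls under this rule is not reported here), and transcript rows where a member's rows were called in opposite directions.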

Additional observations from a re-analysis of the deposited data

Results flagged for a closer look

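Each of 70 groups held the values of 1 member in the 6 transgene or the 6 lane 8 control libraries. Of these groups, 1 held a library far from the others, fewer than chance would give if about 1 in 20 were flagged. Controls 4, 6, 7, 8 and 11 were not screened. Among the lane 8 controls, Kcns3 was lowest in control 3, at a log2 CPM of -0.68 with the next library at 0.97, a gap of 0.736 of the whole range. Kcns3 is a silent Kv2 partner with few counts, and control 3 was the highest control for Kcnv1, Kcnf1, Kcnip2 and Kcnh3.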

How the results depend on the processing

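No paired analysis was possible because the replicate numbers were given in accession order and pair no libraries. Over all libraries, 17 to 21 members were called higher and 6 to 8 lower under the other scalings, tools, filters and fits, and within lane 4 16 to 18 and 5 to 7. The share of all features called under these settings was 27.8% to 51.6% over all libraries and 13.3% to 29.1% within lane 4. The fit with a factor for lane and flow cell gave 17 members higher and 6 lower, beside 30.8% of features. Leaving out each library gave 20 to 21 higher and 6 to 7 lower over all libraries, 15 to 18 and 5 to 7 within lane 4, 0 between lanes among controls, and 26 to 27 and 10 to 13 for transcript rows. The shares of all features called were, in this order, 42% to 50.2%, 18.6% to 24%, 0% to 0.436% and 39.6% to 47.9%. Along the granule cell level, leaving out each library gave 1 to 6 higher and 1 to 12 lower, beside 1.81% to 19% of features. Along the excitatory level it gave 5 to 9 and 0 to 4, beside 0.832% to 4.14%. There, scaling by library size only gave 1 lower instead of 0. With a factor for lane and flow cell, Kcnd2 (-0.10), Kcnip4 (-0.16) and Hcn3 (0.31) also lost their calls and Hcn4 gained one (-0.82). With the most abundant row only, Kcnip4 turned to 0.57 over all libraries and 0.66 within lane 4, since that row is Kcnip4-201. All other turns of sign were of members with no call. With library size only these were Kcna6 (-0.035), Kcnd1 (-0.016) and Kcnd3 (-0.091) over all libraries, and the median of all features moved from -0.05 to -0.16. With the lane factor they were Kcna6 (-0.031), Kcnd1 (-0.14) and Kcnip1 (-0.14). Leaving out each library, Kcnd3 ranged from -0.012 (without control 7) to 0.087 over all libraries. Within lane 4 the ranges were -0.22 to 0.13 for Kcna6, -0.43 to 0.18 for Kcnd1, -0.051 to 0.53 for Kcnd3, -0.25 to 0.013 for Kcnip1, -0.36 to 0.31 for Kcnd2 and -0.27 to 0.027 for Kcnip4, with signs turned without control 7, without control 8 (Kcnd2 and Kcnip4) or, for Kcna6 (0.012), without transgene 3. The cause of these turns was not tested. With library size only, Kcnc4 was called lower over all libraries (-0.27) and Hcn3 was not called (0.27). Without the expression filter, 27.8% of features were called over all libraries. Few counts limit Kcnh4, Kcnq5 and Kcns3.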
